A study of Mus musculus with 21 samples.

Results

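The 9 genes described here mark stages of the oligodendrocyte lineage in the mouse striatum: Olig1, Olig2, Sox10, Nkx2-2, Pdgfra, Cspg4, Lpar1, Gpr17 and Enpp6. They were taken by symbol from a table of 41128 gene symbols, and all 9 had reads in all 21 libraries. Wild-type mice were given adeno-associated virus (AAV, a gene carrier that does not replicate) in the striatum, and RNA was sequenced from the striatum 3 weeks later. Set A holds 9 libraries, 3 each named WT, Cas9 and GCas9, and set B holds 12, 4 each named GFP, Cas9 and GCas9. Cas9 is the nuclease of genome editing. GFP, a fluorescent protein, served as the viral cargo in the reference group of set B. The name GCas9 has no definition among the labels. From what is known of the study, it is Cas9 joined to a piece of Geminin, a cell cycle protein with a short life. All libraries carry the same injection note, so whether the WT mice got a virus is not clear. No promoter of the viral cargo and no guide RNA is named. The labels conflict on age, with 3 weeks in one field and 3 months in another. They do not say whether libraries came from separate mice, so p-values measure the spread between these libraries.

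Oligodendrocytes form the myelin that insulates axons. In the adult brain they arise from precursor cells that go on dividing. A precursor carries PDGF receptor alpha and the proteoglycan NG2 on its surface, passes through a short committed stage marked by Gpr17, and then becomes a newly formed oligodendrocyte that switches on Enpp6 before the main myelin genes. Olig1, Olig2 and Sox10 are transcription factors present through the whole lineage, and Nkx2-2 is a homeodomain factor that acts around the onset of differentiation. In bulk tissue, fewer cells of a type and less RNA per cell cannot be told apart.

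The data came as normalized read counts, that is, reads of a gene divided by a size factor per library. The sets were scaled apart, so levels are compared within a set. Libraries of set A held 20.34 to 28.05 M reads on genes. Those of set B held 6.09 to 11.07 M, and its Cas9 group was the shallowest, at 6.09 to 7.69 M. Striatal neuron markers were detected in every library, and none of the 10 was at 0. In 3 libraries choroid plexus genes stood apart. In Cas9 replicate 1 of set A, 7 choroid plexus genes summed to 294100 normalized counts, in GCas9 replicate 1 of that set to 11650, and in the other 7 libraries of the set to between 666.6 and 3514. Fibroblast and meningeal markers were also highest there, at 12700 against 1351 to 2228 elsewhere in the set. In Cas9 replicate 1 of set B the same 7 genes summed to 10910, against 204.9 to 714.5 in the other libraries of that set. The members' counts and medians in each comparison that uses them are therefore also given without these libraries.

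The members differ in where they lie. In GENCODE M21 on GRCm38, all 9 are protein coding. Olig2 (chr16:91225457-91228677) and Olig1 (chr16:91269772-91271933) are neighbours on the forward strand. Sox10 lies at chr15:79154908-79165240 on the reverse strand and Nkx2-2 at chr2:147177546-147194243, also reverse. Pdgfra is at chr5:75152292-75198215, Cspg4 at chr9:56865033-56899870 and Enpp6 at chr8:46986887-47096762, all forward. Lpar1 is at chr4:58435255-58553898, reverse. Some members share exon bases with a gene on the opposite strand. Nkx2-2 shares 278 with Nkx2-2os, which had a mean of 36.0 normalized counts in set A. Pdgfra shares 456 with Gm42802 and 166 with Gm42803, whose symbols were not matched in the table, and Olig1 shares 157 with Gm15966, which was at 0.0. The labels do not say that counting used strand, so reads in those stretches cannot be told apart.

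The DNA just before the start is shown for 4 members on the forward strand. Enpp6 and Olig2 are among the 3 members whose Cas9 and WT libraries of set A did not overlap. Lpar1, on the reverse strand, is the other and is not shown. Pdgfra and Cspg4 are the receptor and proteoglycan of the precursor surface, whose libraries did overlap. The sequences are RefSeq's, on GRCm38.p6, forward strand, from 250 bases before the RefSeq start to the last base before the first start in RefSeq or GENCODE. Capitals mark matches on either strand to the E-box CANNTG, the general motif of basic helix-loop-helix factors such as Olig1 and Olig2, or to the SOX cores ACAAAG and ACAATG. The 250 bases of Enpp6 are chr8:46986637-46986886, the 157 of Olig2 chr16:91225300-91225456, the 250 of Pdgfra chr5:75152001-75152250 and the 179 of Cspg4 chr9:56864854-56865032.
Enpp6: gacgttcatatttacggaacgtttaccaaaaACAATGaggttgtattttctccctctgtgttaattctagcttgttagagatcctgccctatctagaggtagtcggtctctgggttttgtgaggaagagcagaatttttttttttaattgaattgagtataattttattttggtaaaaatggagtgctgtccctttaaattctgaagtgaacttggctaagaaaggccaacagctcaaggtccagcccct
Olig2: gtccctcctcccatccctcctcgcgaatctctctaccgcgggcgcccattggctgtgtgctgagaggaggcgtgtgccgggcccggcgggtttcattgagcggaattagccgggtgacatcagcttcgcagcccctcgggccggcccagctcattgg
Pdgfra: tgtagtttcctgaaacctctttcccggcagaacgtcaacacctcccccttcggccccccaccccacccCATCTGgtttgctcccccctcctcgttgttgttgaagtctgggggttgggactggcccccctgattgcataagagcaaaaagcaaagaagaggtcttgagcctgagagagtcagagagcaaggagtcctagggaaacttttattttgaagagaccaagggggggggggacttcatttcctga
Cspg4: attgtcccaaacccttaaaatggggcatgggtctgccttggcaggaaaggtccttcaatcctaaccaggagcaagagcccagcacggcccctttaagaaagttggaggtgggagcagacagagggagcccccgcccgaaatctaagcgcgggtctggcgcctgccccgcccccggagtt
Enpp6 held 1 SOX core and no E-box, Pdgfra 1 E-box and no SOX core, and neither motif was found in the windows of Olig2 and Cspg4. Of all 32851 RefSeq promoters, 66.2% held an E-box and 25.2% a SOX core in the 250 bases before the start, 53.9% and 18.6% in 179 bases, and 49.2% and 16.3% in 157 bases. Those 179 and 157 bases are the ones nearest the RefSeq start, whereas the windows of Cspg4 and Olig2 begin 250 bases before it. The stretches compared are therefore placed differently. GC content was 38.4% in the Enpp6 window, 54.4% in that of Pdgfra, 60.3% in that of Cspg4 and 66.9% in that of Olig2. These matches are descriptions of letters, not of binding.

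Levels were compared between genes per length, as reads per kilobase of merged exon per M reads on genes (RPKM). Olig1 was the highest member in all 6 groups, from 42.61 ± 2.69 (SD, n = 3) in GCas9 of set A to 80.5 ± 8.26 (SD, n = 4) in Cas9 of set B. Sox10 was second in all 6 groups, at 20.01 to 27.57. In WT, Gpr17 (11.62 ± 0.42), Olig2 (10.97 ± 1.01), Lpar1 (8.94 ± 0.48) and Pdgfra (5.23 ± 0.47) followed. Gpr17 and Olig2 overlapped there, and the neighbours from Olig2 down to Cspg4 did not. Cspg4 (2.18 ± 0.27), Enpp6 (1.93 ± 0.08) and Nkx2-2 (1.86 ± 0.31) were lowest, and each of these overlapped its neighbour. In GFP, the control of set B, Lpar1 (20.65 ± 1.67) came after Sox10 and above Olig2 (10.15 ± 0.78) and Gpr17 (9.38 ± 1.19), which overlapped. Enpp6 in GFP (4.49 ± 0.87) was above Cspg4 (2.57 ± 0.22), with no overlap. The sets also differ in depth and scaling, so the levels are not compared between them.

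**Figure D1:**
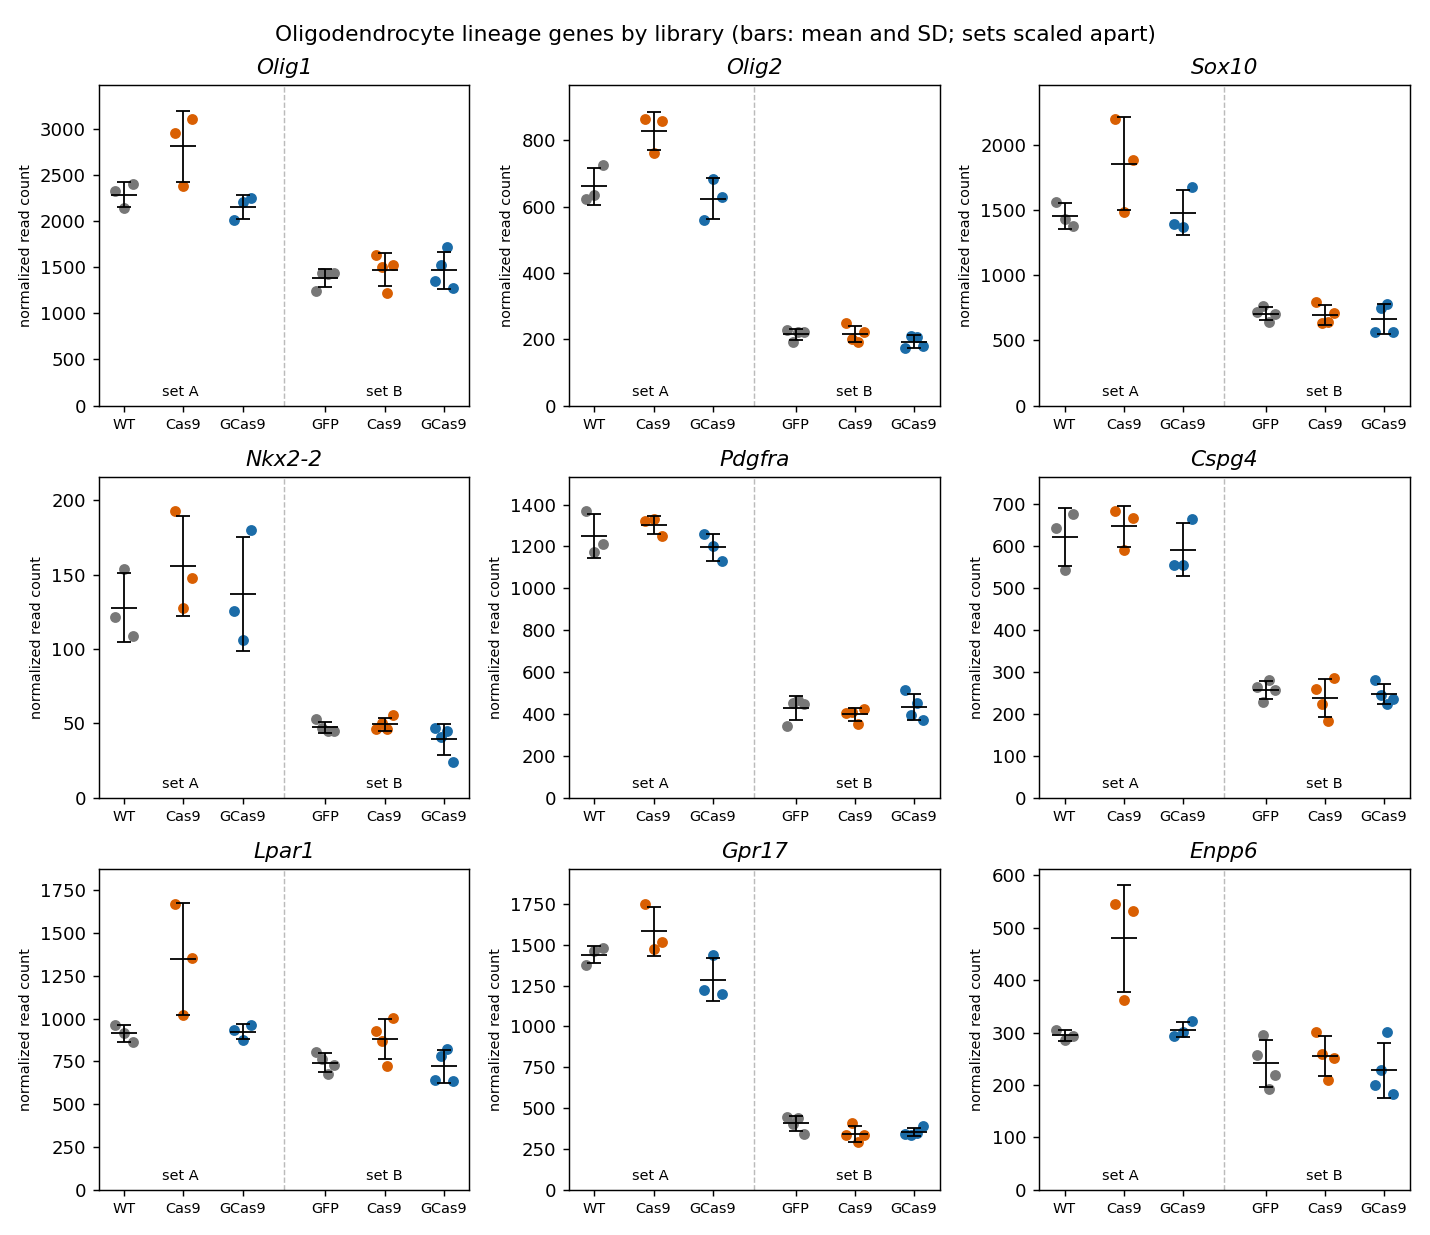
Normalized read count (vertical axis, from 0) of each of the 9 genes in each library, by group (horizontal axis). Points are libraries and bars the mean and SD of 3 libraries a group in set A and 4 in set B, which were scaled apart. In set A, Enpp6, Lpar1 and Olig2 are higher in every Cas9 library than in every WT library, and in set B no member separates a pair of groups.

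In set A, Cas9 was compared with WT, which asks how the tissue with Cas9 differed from tissue named WT. All 9 members had a higher mean with Cas9, by 0.06 to 0.68 on the log2 scale, with a median of 0.29, while the median of all 15924 genes tested was 0. None passed limma's test at an adjusted p under 0.05. That call covered 0.00628% of all genes, which is 1 gene, Gpnmb of activated microglia. An unadjusted p under 0.05 was found for 5 members (Enpp6, Lpar1, Olig2, Olig1 and Sox10) and for 11.8% of all genes. The groups did not overlap for 3 members (Enpp6, Lpar1 and Olig2) and for 19.6% of all genes. With DESeq2 on the recovered reads, Enpp6 passed (0.70, adjusted p = 0.0117), as did 0.728% of all genes. With limma's weights per library, 5 members passed, as did 16.1% of all genes, and in that fit Cas9 replicate 3 had a weight of 5.6 and the other Cas9 libraries 0.32 and 0.481. With Cas9 replicate 1 left out, all 9 were still higher, with a median of 0.21, and 3 (Olig2, Lpar1 and Enpp6) had an unadjusted p under 0.05, against 6.08% of all genes.

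Enpp6, a choline phosphodiesterase of newly formed oligodendrocytes, differed most. Its normalized counts were 305.1, 285.3 and 293.6 in WT replicates 1 to 3 and 545.9, 361.9 and 531 in Cas9. All Cas9 libraries lay above WT, with replicate 2 nearest to it. The log2 fold change was 0.68 ± 0.15 (SE, 95% interval 0.35 to 1.01), with an unadjusted p of 0.00124 and an adjusted p of 0.405 by limma. Without Cas9 replicate 1 it was 0.57, and without replicate 2 it was 0.87 with an adjusted p of 0.032 by limma. In that last fit 0.0439% of all genes passed, and 21% had an unadjusted p under 0.05, against 11.8% with all libraries. Over the removal of each library in turn it ran from 0.57 to 0.87.

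Lpar1, a receptor for lysophosphatidic acid found on maturing oligodendrocytes, had 961.5, 914.6 and 865.1 normalized counts in WT and 1671, 1020 and 1352 in Cas9. The Cas9 libraries spread widely, with an SD of 325.7 against 48.21 in WT, and all lay above WT. The log2 fold change was 0.53 ± 0.15 (SE; limma adjusted p = 0.405). It was 0.36 without Cas9 replicate 1 and 0.72 without replicate 2.

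Among the transcription factors, Olig2 had 621.8, 636.2 and 725.7 in WT and 863.1, 761.3 and 857.7 in Cas9, again with no overlap. Its log2 fold change was 0.32 ± 0.09 (SE; limma adjusted p = 0.405). Olig1 had 2322, 2137 and 2401 in WT and 2953, 2374 and 3102 in Cas9. Cas9 replicate 2 lay inside the WT range, so the groups overlapped, and the log2 fold change was 0.29 ± 0.10 (SE). Sox10 had 1562, 1428 and 1374 in WT and 2196, 1488 and 1885 in Cas9, a log2 fold change of 0.34 ± 0.14 (SE), and the same replicate lay inside the WT range. Nkx2-2, the lowest of the factors, ran from 108.8 to 153.4 in WT and from 127.2 to 192.4 in Cas9. Its difference of 0.28 on the log2 scale had a 95% interval of -0.25 to 0.81. Without Cas9 replicate 1 the log2 fold change was 0.29 for Olig2, 0.25 for Olig1, 0.21 for Sox10 and 0.11 for Nkx2-2, so that those of Sox10 and Nkx2-2 shrank most.

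The genes of the precursor surface and the committed stage differed least. Pdgfra, the receptor through which PDGF drives precursor division, had 1367, 1172 and 1211 in WT and 1323, 1332 and 1252 in Cas9. Its log2 fold change was 0.06, with a 95% interval of -0.10 to 0.22. Cspg4, which encodes NG2, had 642, 543.1 and 676.3 in WT and 682.1, 590.7 and 666.6 in Cas9, and gave 0.06 with an interval of -0.18 to 0.31. Gpr17, a receptor of committed precursors, lies at chr18:31942997-31949636 on the reverse strand and shares 188 exon bases with Lims2 on the other strand, so that reads there cannot be told apart. It had 1379, 1459 and 1479 in WT and 1752, 1474 and 1519 in Cas9, a log2 fold change of 0.13 ± 0.09 (SE), and 0.06 without Cas9 replicate 1. Groups overlapped for all 3 of these genes.

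Within a library, the ratio of Enpp6 to Pdgfra normalized counts needs no scaling. It was 0.223, 0.243 and 0.242 in WT and 0.413, 0.272 and 0.424 in Cas9. In GCas9 of set A it was 0.233, 0.251 and 0.285, a range that holds the lowest Cas9 library. In set B it ran from 0.413 to 0.752 in GFP, from 0.592 to 0.746 in Cas9 and from 0.389 to 0.664 in GCas9, so the groups overlapped. The pair was chosen after its values were seen.

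Pdgfra is also expressed by fibroblasts and Cspg4 by mural cells of vessels. All 11 mural and all 9 fibroblast and meningeal markers had a higher mean in Cas9 than in WT, with medians of 0.26 and 0.85. Summed mural markers ran from 5786 to 6630 in WT and from 6560 to 8480 in Cas9. Summed fibroblast markers ran from 1351 to 1615 in WT and from 1636 to 12700 in Cas9. These medians were 0.11 and 0.30 without Cas9 replicate 1, and the log2 fold change was 0.05 for Pdgfra and 0.02 for Cspg4. No marker of either list was at 0 in these libraries, and their part in the Pdgfra and Cspg4 values was not tested.

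GCas9 libraries overlapped WT in set A for every member. Among the members, 4 were higher and 5 lower, with a median of -0.06 and a range of -0.16 to 0.08. None had an unadjusted p under 0.05, which 6.77% of all genes had, and none had groups without overlap, which 16.2% had. The adjusted call covered 0.00628% of genes, again Gpnmb alone, and no member. Gpr17 lay lowest, at 1224, 1436 and 1201 in GCas9, a log2 fold change of -0.16 ± 0.09 (SE). Enpp6 was 293.4, 301.5 and 322.3 in GCas9, a difference of 0.05 with a 95% interval of -0.28 to 0.38. Leaving out GCas9 replicate 1 gave 4 members higher and 5 lower, with a median of -0.01. No member then had an unadjusted p under 0.05, against 7.4% of all genes. With the replicate number as a block, 2 genes and no member passed in this comparison, against 1 gene without the block.

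All 9 members were lower with GCas9 than with Cas9 in set A, with a median log2 fold change of -0.31 against 0.01 over all genes. The Cas9 libraries are those already compared with WT, so the comparisons share them. None passed limma's adjusted threshold, and neither did any of the 15924 genes (0%). An unadjusted p under 0.05 was found for 6 members, against 5.45% of all genes, and 5 did not overlap, against 8.84%. Those 5 were Olig1, Olig2, Lpar1, Gpr17 and Enpp6, and Sox10 was the other with an unadjusted p under 0.05.

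Enpp6 gave -0.62 ± 0.15 (SE) and Lpar1 -0.52 ± 0.15 (SE), each with a limma adjusted p of 0.89. Lpar1 was 933, 875.2 and 963.6 in GCas9, below the lowest Cas9 library at 1020. Olig2 (559, 681.8 and 628.8 in GCas9) gave -0.41 ± 0.09 (SE) and Olig1 (2008, 2204 and 2253) gave -0.37 ± 0.10 (SE). Gpr17 gave -0.30 ± 0.09 (SE), and its highest GCas9 library, 1436, lay just under the lowest Cas9 library, 1474. Sox10 gave -0.31 ± 0.14 (SE), Nkx2-2 -0.20 ± 0.23 (SE), Cspg4 -0.13 ± 0.11 (SE) and Pdgfra -0.12 ± 0.07 (SE). All 9 were still lower when Cas9 replicate 1 was left out, with a median of -0.22, and 5 had an unadjusted p under 0.05, against 4.24% of all genes. Nkx2-2 was then -0.03 and Sox10 -0.18. Without Cas9 replicate 2 the median was -0.47. Leaving out GCas9 replicate 1 kept all 9 lower, with a median of -0.27 and 5 at an unadjusted p under 0.05, against 3.57% of all genes.

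Markers of other cell types also had unequal means in this comparison. All 7 endothelial markers (median -0.23), all 9 of fibroblasts and meninges (-0.47) and 10 of 11 mural markers (-0.18) were lower with GCas9. All 6 neuroblast markers (0.55) and all 10 cell cycle genes (0.80) were higher. With Cas9 replicate 1 left out, 6 of 7 endothelial (-0.16), 5 of 9 fibroblast (-0.01) and 8 of 11 mural markers (-0.06) were lower, and all neuroblast (0.59) and cell cycle genes (0.81) were higher. In the same contrast of set B, all 10 cell cycle genes (-0.48) and 4 of 5 neuroblast markers (-0.06) were lower. There, 5 of 7 endothelial (0.04), 5 of 8 fibroblast (0.04) and 10 of 11 mural markers (0.18) were higher. The part of these markers in the members' values was not tested.

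**Figure D2:**
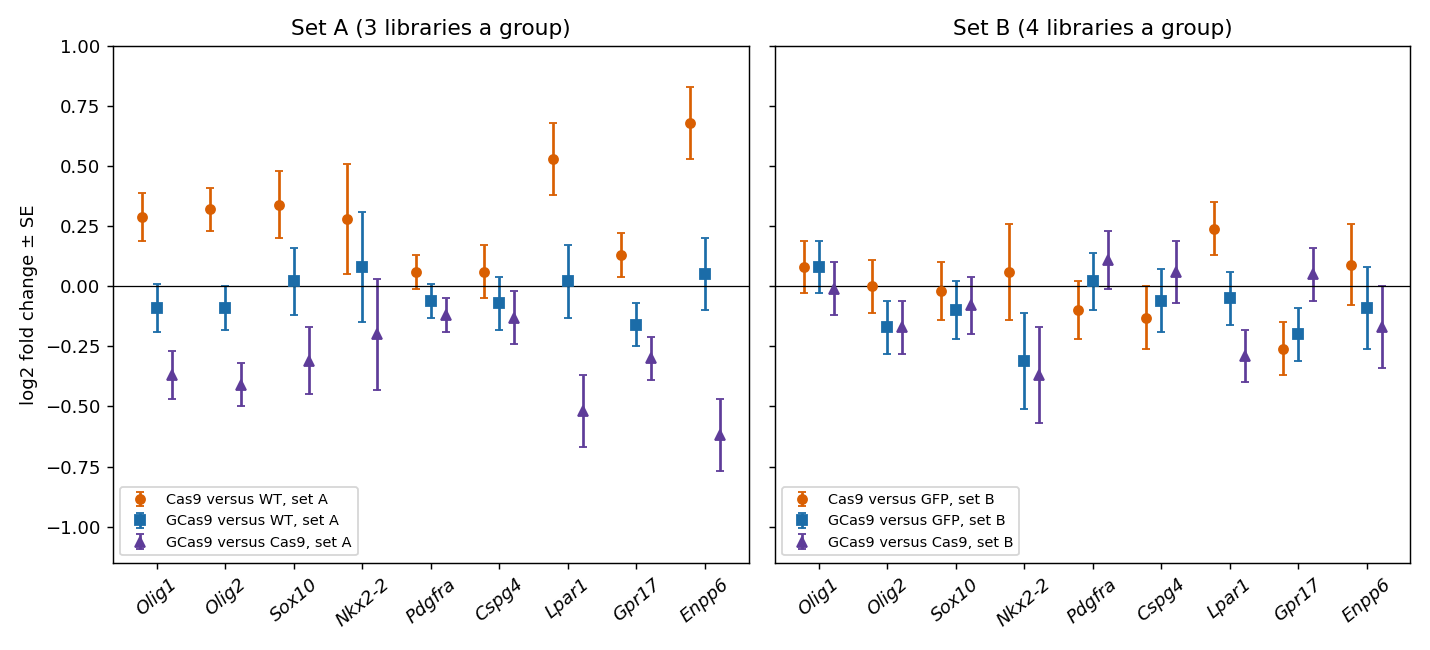
Log2 fold change with its standard error from limma (vertical axis) for each of the 9 genes (horizontal axis) in 3 comparisons of set A (left) and 3 of set B (right). Comparisons in a panel share groups. In set A, Enpp6 and Lpar1 lie farthest from 0 in both comparisons with Cas9, at 0.68 and 0.53 against WT, while in set B the values stay between -0.37 and 0.24.

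In set B, Cas9 was compared with a virus carrying GFP. Of the members, 4 were higher and 5 lower, with a median of 0 and a range of -0.26 to 0.24. No member and none of the 15428 genes passed limma's adjusted threshold (0%). Gpr17 alone had an unadjusted p under 0.05, against 6.24% of all genes. No member had groups without overlap, against 4.68% of all genes. Without Cas9 replicate 1 no member had an unadjusted p under 0.05, against 8.79% of all genes. The median was then -0.07, and Gpr17 (-0.25) and Lpar1 (0.21) had limma adjusted p-values of 0.578 and 0.633.

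Gpr17 was 447.3, 404.4, 437.5 and 344 in GFP and 333.1, 407.3, 295.1 and 334 in Cas9. The log2 fold change was -0.26 ± 0.11 (SE; limma unadjusted p = 0.0341, adjusted p = 0.788). GFP replicate 4 and Cas9 replicate 2 made the groups overlap. Lpar1 was 806.1, 762.7, 673.8 and 728 in GFP and 927.1, 867.4, 724.7 and 1001 in Cas9, a log2 fold change of 0.24 ± 0.11 (SE; limma unadjusted p = 0.0509, adjusted p = 0.788). In all, 3 of the 4 Cas9 libraries lay above every GFP library. Enpp6, the member that differed most in set A, gave 0.09 with a 95% interval of -0.27 to 0.45, and its groups overlapped at 192.5 to 295.8 in GFP and 208.9 to 301.5 in Cas9. Olig2 gave 0.00 with an interval of -0.24 to 0.23.

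The other members of set B overlapped widely. Olig1 was 1241 to 1436 in GFP, 1215 to 1634 in Cas9 and 1272 to 1720 in GCas9. Sox10 was 643.3 to 760.1, 631.1 to 796.1 and 562.3 to 776.9 in the same order of groups. Pdgfra was 343.1 to 466.1, 352.9 to 424.9 and 371.2 to 513.6. The Cas9 range held the whole GFP range for Olig1 and Sox10 and lay inside it for Pdgfra. Cspg4 was 228.3 to 280.2, 182.9 to 286.1 and 223.9 to 279.4.

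GCas9 compared with GFP gave 2 members higher and 7 lower, with a median of -0.09. None passed the adjusted threshold (0% of all genes), none had an unadjusted p under 0.05 (6.48% of all genes) and none had groups without overlap (4.16%). Nkx2-2 lay lowest at -0.31 ± 0.20 (SE), with 46.83, 40.92, 44.94 and 23.89 in GCas9 against 44.59 to 52.62 in GFP. The last of these libraries rested on 30 reads, the fewest of any value here. Gpr17 was -0.20 ± 0.11 (SE), with 340.9, 338.2, 346.7 and 389.5.

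GCas9 compared with Cas9 in set B gave 3 members higher and 6 lower, with a median of -0.08. No gene passed the adjusted threshold (0%), Lpar1 alone among the members had an unadjusted p under 0.05 (3.84% of all genes), and no member lacked overlap (2.02%). Lpar1 was 638.7, 782.9, 822.6 and 636.4 in GCas9, a log2 fold change of -0.29 ± 0.11 (SE; limma unadjusted p = 0.0213, adjusted p = 0.995). Its 2 highest GCas9 libraries lay above the lowest Cas9 library, 724.7, and without Cas9 replicate 1 it gave -0.26 (limma unadjusted p = 0.0526, adjusted p = 0.72). No member then had an unadjusted p under 0.05, against 6.93% of all genes, and the median was -0.01. Olig2 gave -0.17 ± 0.11 (SE), Enpp6 -0.17 ± 0.17 (SE), Pdgfra 0.11 ± 0.12 (SE) and Gpr17 0.05 ± 0.11 (SE).

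This is the contrast that both sets hold, and it was also fitted over all 21 libraries. As the mean of both sets, all 9 members were lower or at 0 with GCas9, with a median of -0.20. Lpar1 (-0.40 ± 0.10, SE), Olig2 (-0.29 ± 0.07, SE), Enpp6 (-0.40 ± 0.12, SE) and Olig1 (-0.19 ± 0.08, SE) had an unadjusted p under 0.05, against 3.72% of 16094 genes. By that p, Lpar1 ranked 6 and Olig2 ranked 10 of all genes, and the limma adjusted p was 1 for every member. No gene passed (0%). Olig2, Lpar1 and Enpp6 kept an unadjusted p under 0.05 without Cas9 replicate 1 of set A (median -0.17), and Olig1 did not. The same held without Cas9 replicate 1 of set B (-0.16) and without GCas9 replicate 1 of set A (-0.17). Of all genes, 350 of 16034, 707 of 16102 and 426 of 16077 had such a p in these fits, in that order. Pdgfra was 0.00, with a 95% interval of -0.17 to 0.16, and Cspg4 was -0.03, with an interval of -0.22 to 0.16.

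The difference between the sets (set B minus set A) was above 0 for 8 members and below 0 for Nkx2-2, with a median of 0.24. Olig1 (0.37 ± 0.16, SE) and Gpr17 (0.35 ± 0.15, SE) had an unadjusted p under 0.05, as did 4.34% of all genes, and every member's limma adjusted p was 0.992 (0% of genes called). For Lpar1 the difference was 0.23 with an interval of -0.17 to 0.63, and for Enpp6 0.45 with an interval of -0.07 to 0.97. The count with an unadjusted p under 0.05 changed with the libraries. It was 0 without Cas9 replicate 1 of set A (median 0.21), where 573 of 16034 genes had such a p. It was 0 without GCas9 replicate 1 of that set (median 0.24), against 575 of 16077 genes. Without Cas9 replicate 2 of that set it was 5 (median 0.39), against 1067 of 16092 genes. It was 4 (Olig1, Olig2, Gpr17 and Enpp6) without Cas9 replicate 1 of set B (median 0.31), where 1355 of 16102 genes had such a p. The test showed a difference between the sets for no member, and intervals of this width do not show that the sets were alike.

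Other genes of the lineage, from 5 lists that hold none of the 9, were set beside them. In Cas9 against WT of set A, all 24 mature oligodendrocyte and myelin genes had a higher mean, by 0.32 to 0.74, with a median of 0.48. Of these, 20 had an unadjusted p under 0.05 and 7 had groups without overlap, against 11.8% and 19.6% of all genes. By smallest p these were led by Ppp1r14a (0.63 ± 0.16, SE), an inhibitor of myosin phosphatase enriched in mature cells, Tspan2 (0.52 ± 0.13, SE), a tetraspanin of myelin, and Mal (0.59 ± 0.16, SE), a myelin proteolipid. Of 14 markers of committed and newly formed cells tested, 13 were higher, with a median of 0.34. They were led by Lims2 (0.34 ± 0.09, SE), which shares exon bases with Gpr17, Bcas1 (0.50 ± 0.13, SE) and the repressor Zfp488 (0.56 ± 0.17, SE). None of these passed limma's adjusted threshold, with an adjusted p of 0.405 for each of the 6.

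The 12 precursor markers did not share that shift: 4 were higher and 8 lower, with a median of -0.02 and none at an unadjusted p under 0.05. Over all genes, 11.8% had such a p. Susd5 (0.35 ± 0.16, SE) came first by p, followed by the auxiliary AMPA receptor subunit Cacng4 (-0.12 ± 0.08, SE) and the sialidase Neu4 (0.18 ± 0.14, SE). Of 19 further regulators, 10 were higher and 9 lower, with a median of 0.03. The Notch target Hes5, which holds back differentiation, was lower (-0.78 ± 0.18, SE), and the zinc finger factor Zeb2 (0.32 ± 0.10, SE) and the homeodomain factor Nkx6-2 (0.59 ± 0.19, SE) were higher, each with a limma adjusted p of 0.405. Of 26 signalling genes, 18 were higher, with a median of 0.06. Those with an unadjusted p under 0.05 were 3 higher and 1 lower, against 11.8% of all genes. The lower one was Lingo1 (-0.34 ± 0.08, SE), and the 3 higher ones are not named here. Without Cas9 replicate 1, the medians were 0.31 for the myelin genes (24 of 24 higher), 0.19 for the committed and newly formed markers (13 of 14), -0.01 for the precursor markers (5 of 12), -0.03 for the regulators (9 of 19), 0.02 for the signalling genes (14 of 26) and 0.21 for the 9 members. The number of myelin genes with an unadjusted p under 0.05 was then 9, against 6.08% of all genes.

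**Figure D3:**
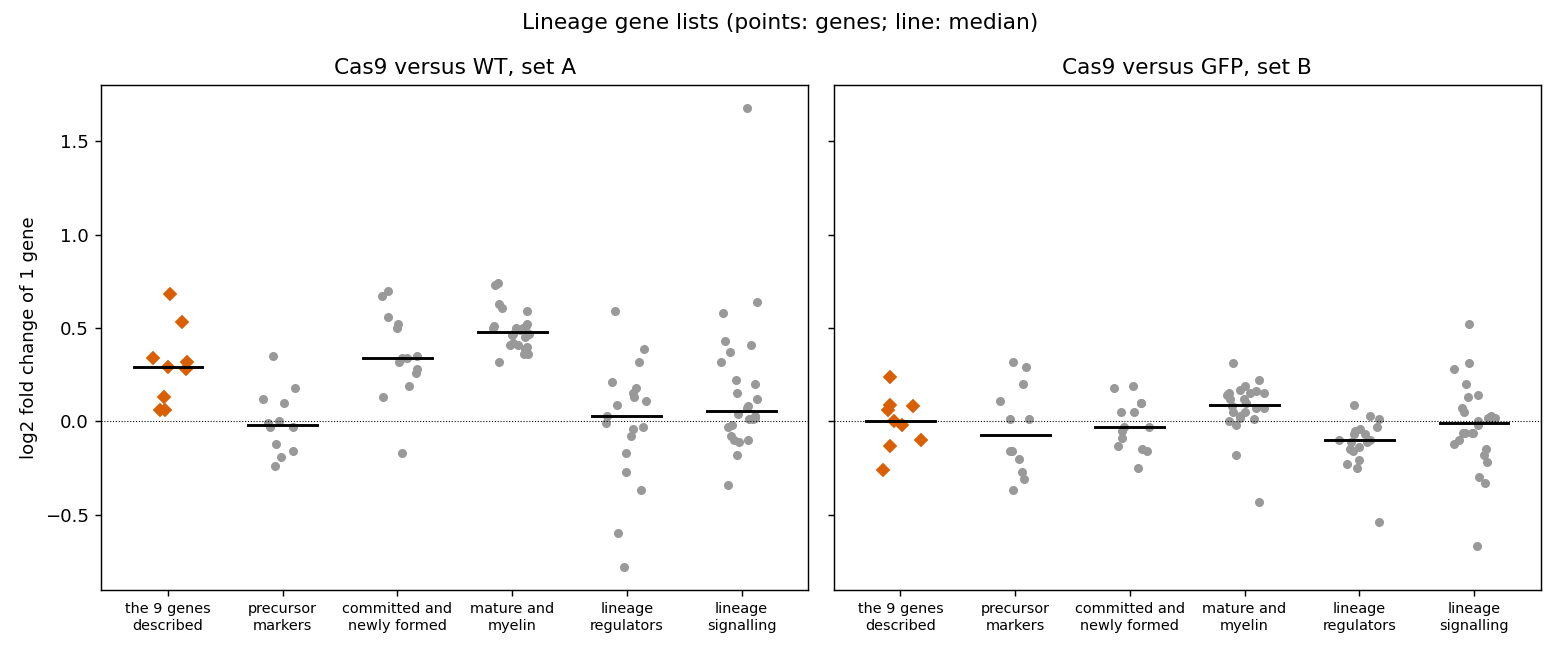
Log2 fold change (vertical axis) of single genes, for the 9 genes described (orange diamonds) and 5 lineage lists that hold none of them (grey points), in Cas9 against WT of set A (left) and Cas9 against GFP of set B (right). Lines are medians. On the left the myelin genes all lie above 0 with a median of 0.48 and the precursor markers lie around -0.02, and on the right the medians run from -0.10 to 0.09.

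In set B the same lists lay near 0 in Cas9 against GFP. The median was 0.09 for the myelin genes (21 of 24 higher), -0.03 for committed and newly formed markers, -0.08 for precursor markers, -0.10 for regulators and -0.01 for signalling genes. No myelin gene had an unadjusted p under 0.05. With Cas9 replicate 1 left out, 15 of 24 myelin genes were higher, with a median of 0.03. In GCas9 against Cas9 of set A, 23 of 24 myelin genes and 13 of 14 committed and newly formed markers were lower, with medians of -0.44 and -0.32, and in set B 20 of 24 and 7 of 14, with medians of -0.09 and -0.01. With Cas9 replicate 1 of each set left out, 21 of 24 and 11 of 14 were lower in set A (medians -0.30 and -0.22) and 16 of 24 and 4 of 14 in set B (-0.05 and 0.05). In GCas9 against WT of set A, 10 of 24 myelin genes were higher, with a median of -0.02.

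Like every member but Olig1 and Pdgfra, the summed myelin list was highest in Cas9 replicate 1 of set A and lowest, within that group, in replicate 2. It was 427300, 260000 and 354600 normalized counts in Cas9 replicates 1 to 3, against 223400 to 267300 in WT and 229500 to 261500 in GCas9. Replicate 2 lay inside the WT range. Markers of other cell types also had unequal means there: all 12 microglial markers were higher in Cas9 than in WT (median 0.70), all 8 of activated microglia and macrophages (median 2.95), all 9 astrocyte markers (median 0.33), and all 7 endothelial markers (median 0.34), and 9 of 10 striatal neuron markers were lower (median -0.10). Without Cas9 replicate 1 these medians were 0.61, 2.99, 0.23, 0.25 and 0.00, with 5 of 10 striatal neuron markers lower. All 6 neuroblast markers (median -0.46) and all 7 pan-neuronal markers (-0.16) were also lower in Cas9 than in WT. With Cas9 replicate 1 left out, 5 of 6 neuroblast (-0.51) and 6 of 7 pan-neuronal markers (-0.08) were lower. In GCas9 against WT, where the members' median was -0.06, the medians were 0.61 for microglia, 2.78 for activated microglia and macrophages, 0.22 for astrocytes, 0.08 for endothelium, 0.08 for mural cells and -0.14 for striatal neurons. Their part in the members' values was not tested.

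Within groups, the members differed in how closely they followed the myelin list. Each library's deviation from its group mean on the log2 scale was compared with the mean deviation of the 24 myelin genes, over 9 libraries of set A and 12 of set B. These correlations are descriptions, since all values of a library share its dissection, depth and scaling. Sox10 followed the myelin genes most closely, with r of 1.00 and 0.93, followed by Lpar1 (0.93 and 0.83) and Enpp6 (0.89 and 0.88). Olig1 gave 0.70 and 0.75, Nkx2-2 0.78 and 0.42, and Olig2 0.25 and 0.63. Pdgfra (-0.11 and -0.01) and Gpr17 (0.21 and 0.07) lay near 0 in set B and at 0.21 or below in set A, and Cspg4 gave 0.60 and -0.01. With the precursor list, Gpr17 gave 0.37 and 0.71, Cspg4 0.33 and 0.67, and Pdgfra 0.16 and 0.28. Olig1 (0.70 and 0.27), Olig2 (0.58 and 0.13) and Enpp6 (0.51 and 0.24) lay above these in set A and below them in set B. Sox10 gave 0.26 and -0.11, Lpar1 0.24 and 0.37, and Nkx2-2 -0.32 and 0.17.

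**Figure D4:**
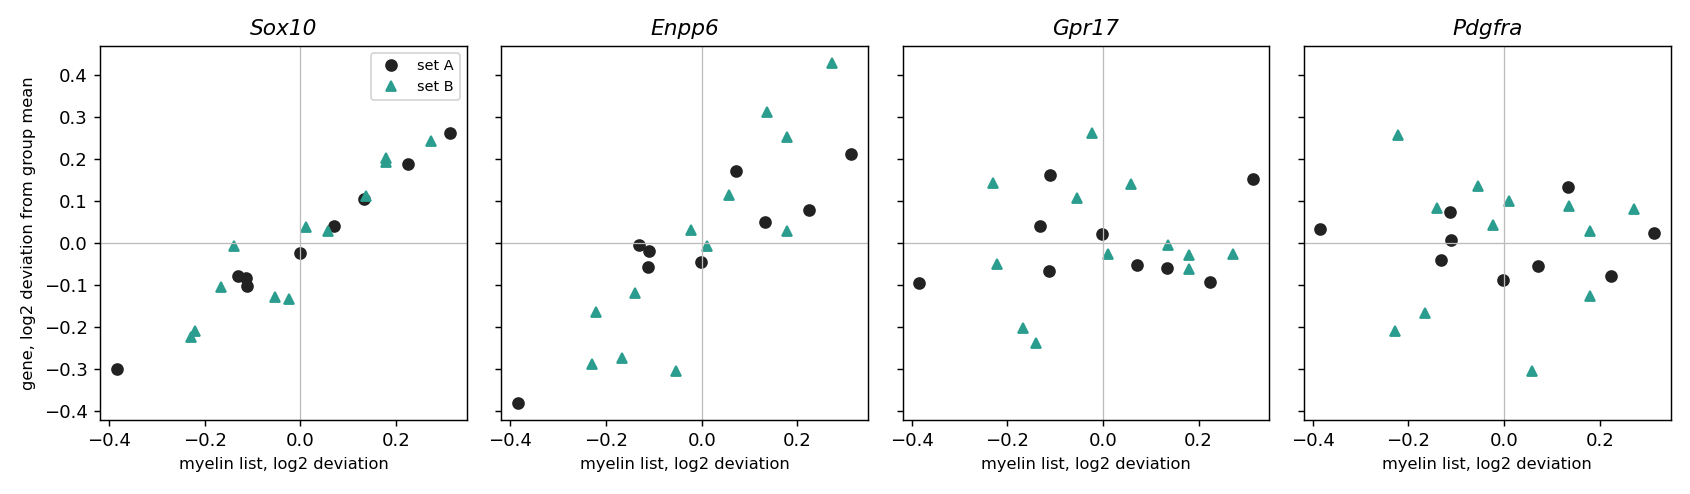
Deviation of Sox10, Enpp6, Gpr17 and Pdgfra from their group means (vertical axis, log2) against the mean deviation of 24 myelin genes (horizontal axis, log2), with 1 point per library (circles, 9 of set A; triangles, 12 of set B). Sox10 lies close to a line with the myelin genes (r of 1.00 and 0.93), and Pdgfra does not (r of -0.11 and -0.01).

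Among the 36 pairs of members, Sox10 with Enpp6 (0.88 in set A, 0.83 in set B), Sox10 with Lpar1 (0.93 and 0.81) and Lpar1 with Enpp6 (0.90 and 0.79) were the most alike in both sets. Olig1 and Olig2, the neighbours on chromosome 16, gave 0.73 and 0.60. Gpr17 and Enpp6, which mark adjacent stages, gave 0.36 and 0.06. Pdgfra and Cspg4, both of the precursor surface, gave -0.10 and 0.41. The lowest value, -0.47 in set A, was that of Olig2 with Pdgfra, and in set B the pair gave -0.10.

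**Figure D5:**
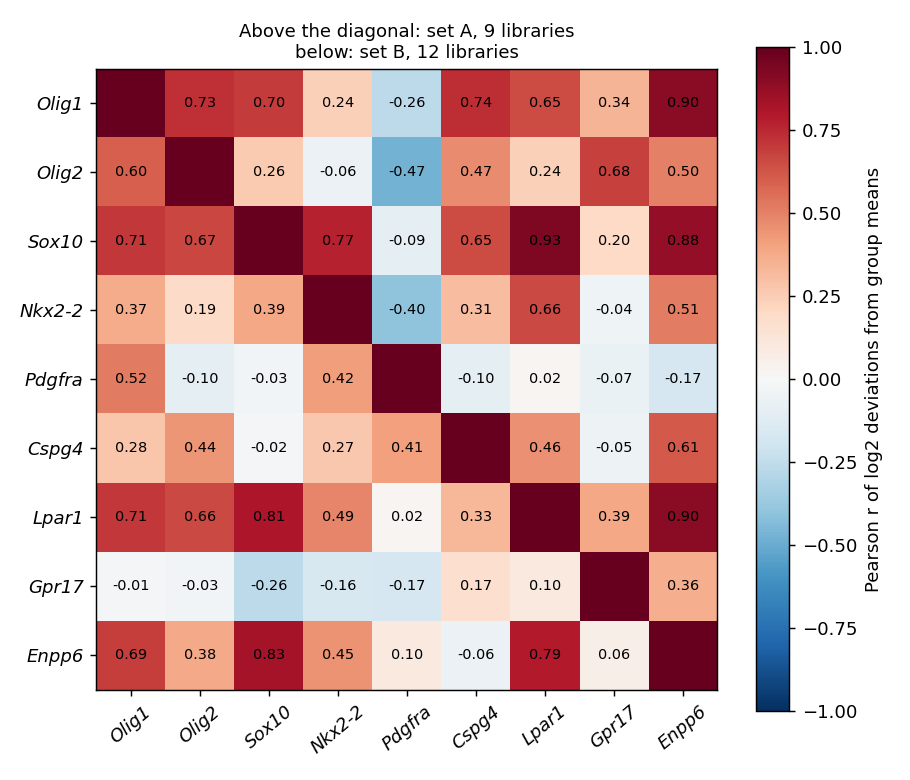
Pearson r of log2 deviations from group means for each pair of the 9 genes (both axes), over 9 libraries of set A above the diagonal and 12 of set B below it; red is positive and blue negative. Sox10, Lpar1 and Enpp6 form pairs at 0.79 or above in both sets, while pairs with Pdgfra run from -0.47 to 0.52.

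Of 11645 other genes with a mean of at least 50 in each set, those whose deviations most closely followed the mean of the 9 members, by the lower r of the sets, were Zeb2 (0.89 in set A, 0.93 in set B), Tprn (0.90 and 0.86), Hepacam (0.86 and 0.89), Ptprk (0.89 and 0.86) and Arhgef10 (0.89 and 0.85). Zeb2 was also among the lineage regulators listed. The highest of so many values are high in part because they were picked.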

How the data were processed

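RNA of striatal tissue was sequenced from cDNA made with a SMARTer kit and Nextera XT libraries, per the labels' protocols. Tools listed in the submitters' processing notes are HTSeq, STAR 2.5.2b, R 3.3.3, DESeq2 and SAMtools, on GRCm38.p3, and no parameters are given there. The deposited signal per gene symbol is a read count that the authors divided by a size factor per library. Every value was a whole number of reads within 0.001, so reads were recovered. The labels name no molecular identifiers, so reads of amplified cDNA are not independent molecules.

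Genes with a mean of at least 10 were tested with limma 3.58.1 (R 4.3.3) on log2(normalized count + 1), per set with 3 groups, or over 21 libraries with 6 groups, two-sided, with Benjamini-Hochberg adjustment over all genes and an adjusted p under 0.05. Fold changes on that scale understate changes of low genes. All 9 members passed the filter in each fit. edgeR 4.0.16 and DESeq2 1.42.0 ran on recovered reads as alternatives. The fit was tested on simulated data with independent libraries, a fixed dispersion and changes larger than those of the members. That run does not cover changes of the members' size or outlying libraries. The members and lists were chosen with earlier results of these data known. All 9 members were named, with up to 3 genes by smallest p per lineage list and comparison. Of 201 listed genes, 2 matched by an older symbol and 1 did not match. Of the members, 6 had a RefSeq promoter entry. Sets were told apart by title numbering and by scaling. Numbers were taken to pair libraries where all same-number pairs of a comparison had deviations correlated above 0.1, which held in GCas9 against WT of set A (0.191 to 0.342) and GCas9 against Cas9 of set B (0.142 to 0.413), from the data and not from the labels. Fits of the gene lists without a library were chosen after seeing the data.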

Additional observations from a re-analysis of the deposited data

Results flagged for a closer look

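Among 27 groups of 4 libraries (9 genes, 3 groups of set B), 3 held a library far from the other 3, and chance gives about 1 in 20. Olig1 in GFP was 1241 in replicate 1 and 1422 to 1436 in the others. Pdgfra in GFP was 343.1 in the same library and 449.5 to 466.1 in the others. Gpr17 in GCas9 was 389.5 in replicate 4 and 338.2 to 346.7 in the others. With GFP replicate 1 left out, the Pdgfra log2 fold change of GCas9 against GFP was -0.08, in place of 0.02.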

How the results depend on the processing

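The direction of all 9 members was the same in GCas9 against Cas9 of set A under every alternative run, and in Cas9 against WT under all but library weights (Pdgfra 0) and the fit without WT replicate 2 (Cspg4). Members passed the adjusted threshold in these fits only. In Cas9 against WT, DESeq2 called 1 member and library weights 5, and leaving out a library gave 0 to 1 (1 without Cas9 replicate 2). In GCas9 against Cas9 of set A, library weights called 6. In both weighted fits Cas9 replicate 3 had a weight of 5.6. The cause of these calls was not tested. Over all genes in the comparisons of the report, in order, DESeq2 called 116, 218, 4, 14, 41, 0, 0 and 0 genes against 1, 1, 0, 0, 0, 0, 0 and 0 with limma, and library weights called 2570, 6, 932, 0, 12, 0, 0 and 0. Fits of 2 groups called 6 genes in Cas9 against WT and 7 in GCas9 against GFP. edgeR and a pseudocount of 5 called 0 in Cas9 against WT, and no filter on low values called 4 in the mean of both sets and 1 in their difference. Leaving out a library gave 0 to 7 genes in Cas9 against WT, 7 without Cas9 replicate 2, and 0 to 3 in the others.

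Signs turned where values were near 0, and the cause was not tested. With library weights, GCas9 against WT gave -0.06 for Sox10 and -0.03 for Nkx2-2, GCas9 against Cas9 of set B 0.06 for Olig1 and 0.02 for Sox10, and the mean of both sets 0.04 for Pdgfra, which DESeq2 put at 0.01. Quantile normalization gave -0.08 for Nkx2-2 and -0.03 for Enpp6 in GCas9 against WT. Olig2 in Cas9 against GFP was 0 with edgeR, 0.01 with DESeq2 and 0 with TMM scaling. Leaving out each library in turn gave these ranges. Cas9 against WT: Cspg4 -0.03 to 0.13. GCas9 against WT: Sox10 -0.07 to 0.07, Nkx2-2 -0.13 to 0.25, Pdgfra -0.11 to 0, Lpar1 -0.02 to 0.05. Cas9 against GFP: Olig2 -0.07 to 0.05, Sox10 -0.09 to 0.02, Enpp6 -0.02 to 0.19. GCas9 against GFP: Olig1 -0.01 to 0.14, Pdgfra -0.08 to 0.09, Lpar1 -0.12 to 0.01, Enpp6 -0.23 to 0.02. GCas9 against Cas9, set B: Olig1 -0.09 to 0.06, Cspg4 -0.05 to 0.16, Gpr17 -0.01 to 0.14. Mean of both sets: Pdgfra -0.05 to 0.03, Cspg4 -0.09 to 0.01. Set B minus set A: Nkx2-2 -0.34 to 0.04.

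With the replicate number as a block, fitted over all groups of a set, no member was called (0), and 2, 2, 0, 0, 5, 0, 0 and 0 genes were called in the order above. In GCas9 against WT of set A and GCas9 against Cas9 of set B, where numbers were taken to pair the libraries, that is 2 genes against 1 and 0 against 0. No other call changed there. The other comparisons missed the rule of every pair above 0.1, with lowest same-number correlations of 0.045, 0.094, 0.003 and -0.162. In GCas9 against Cas9 of set A, the 0.094 stood beside 0.706 and 0.502, so numbers may link those libraries too. Of 21 libraries, 15 correlated best with their own number. Same-number medians were 0.28 and 0.18 by set, and those of different numbers -0.21 and -0.11. Deviations from a group mean sum to 0 within the group, so the negative medians follow in part from the positive ones. Set B was the shallower set, and Nkx2-2 there rested on 30 to 61 reads a library.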
